A study of Homo sapiens with 26 samples.

Results

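RNA tagged by APEX2 carried on Lck sequence was compared with its own controls in HEK293T cells. The comparison used 6 of the 26 libraries of the series, 3 labeled and 3 control, chosen by their titles. Of the 25745 genes in the table, 20466 had a log2 FPKM value (a level per kilobase of transcript, scaled for library depth) above 0 in at least 3 of the 6 libraries, and these were tested. HEK293T cells derive from human embryonic kidney and express a viral T antigen. Both groups were made from cells with the Lck fusion, and the labels list biotin-phenol, a short pulse of hydrogen peroxide and a streptavidin pull-down for labeled and control libraries alike. The step that made a control unlabeled, the stretch of Lck that was fused and whether the cells were 1 clone were not given in the sources used here. The 3 libraries of a group are called biological replicates in the series' design text. The remaining 20 libraries came from the constructs Lyn11, CD28 and PDGFR and entered only the comparison between constructs.

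APEX2 is an engineered peroxidase that turns biotin-phenol into short-lived radicals, which tag RNA and protein close to the enzyme. Lck is a Src-family kinase whose amino end is modified with fatty acids that hold it on the inner face of the plasma membrane, where it starts T cell receptor signalling. RNA expected near this face as textbook background includes mRNAs translated at the membrane or on the adjoining endoplasmic reticulum, whereas spliceosomal RNAs such as U1 and nucleolar RNAs such as U3 are known for their work in the nucleus. The comparison asks which RNAs the labeling enriched.

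The libraries held 19.52 M, 21.31 M and 22.37 M recovered reads, in units of a mega-read (M), when labeled and 19.82 M, 21.81 M and 19.86 M as controls. Pairs of replicates had a Pearson correlation of 0.945 to 0.966 over genes, and genes are not independent of each other. All 6 listed HEK293T markers were tested and limma called 0 (1 with an unadjusted p under 0.05, 0 called by limma voom). All 6 were nevertheless below 0, from -0.34 for KRT18 to -0.13 for VIM, with a median of -0.22. For 3 of the 6 the groups did not overlap, beside 25.8% of all genes tested. The part of this marker shift in other differences was not tested. VIM, an intermediate filament gene, stood at 5.63 to 5.69 log2 FPKM in labeled and 5.72 to 5.88 in control libraries. Of 8 blood cell markers 4 were in the table, and their summed reads were 234 to 311 in labeled and 222 to 276 in control libraries. Among them CD247, the zeta chain of the T cell receptor, had 64 to 75 reads labeled and 9 to 13 as control, and was below the filter. Its part in other differences was not tested. LCK itself was not analysed here. In bulk libraries of this kind, fewer cells with an RNA and less of that RNA per cell cannot be told apart.

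Labeled libraries held RNA of more lowly expressed genes. Genes at 0 reads numbered 23 to 48 in labeled and 75 to 86 in control libraries, and the lower quartile of the log2 values was 0.19 to 0.24 against 0.05 to 0.10. The median difference fell with mean level, from 0.60 in the 649 genes with a mean log2 under 0 to -0.06 at 2 to 4 and -0.11 at 6 or more. The share of reads from mitochondrial genes was 1.98% to 2.80% in labeled and 1.44% to 2.004% in control libraries. These values move with the group, and their part in the differences of single genes was not tested.

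With Lck, 690 genes were higher in labeled than in control libraries and 185 were lower, at an adjusted p under 0.05 in limma on the 6 libraries. That is 3.37% and 0.904% of the 20466 genes tested, or 4.28% in both directions, and the median difference over all of them was -0.04 log2 units. Of the 690 higher genes, 290 were above 0 in the 3 labeled libraries and in none of the controls, as were 465 genes tested, and such genes passed the filter only through the group where they were high. With a mean log2 of at least 0 as the filter, 460 genes were higher and 133 lower of 19845. Groups did not overlap for 5287 genes, 25.8% of those tested. Without labeled replicate 2 the counts fell to 232 higher and 38 lower, and without any one of the other libraries they were 327 to 471 and 41 to 85.

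**Figure D1:**
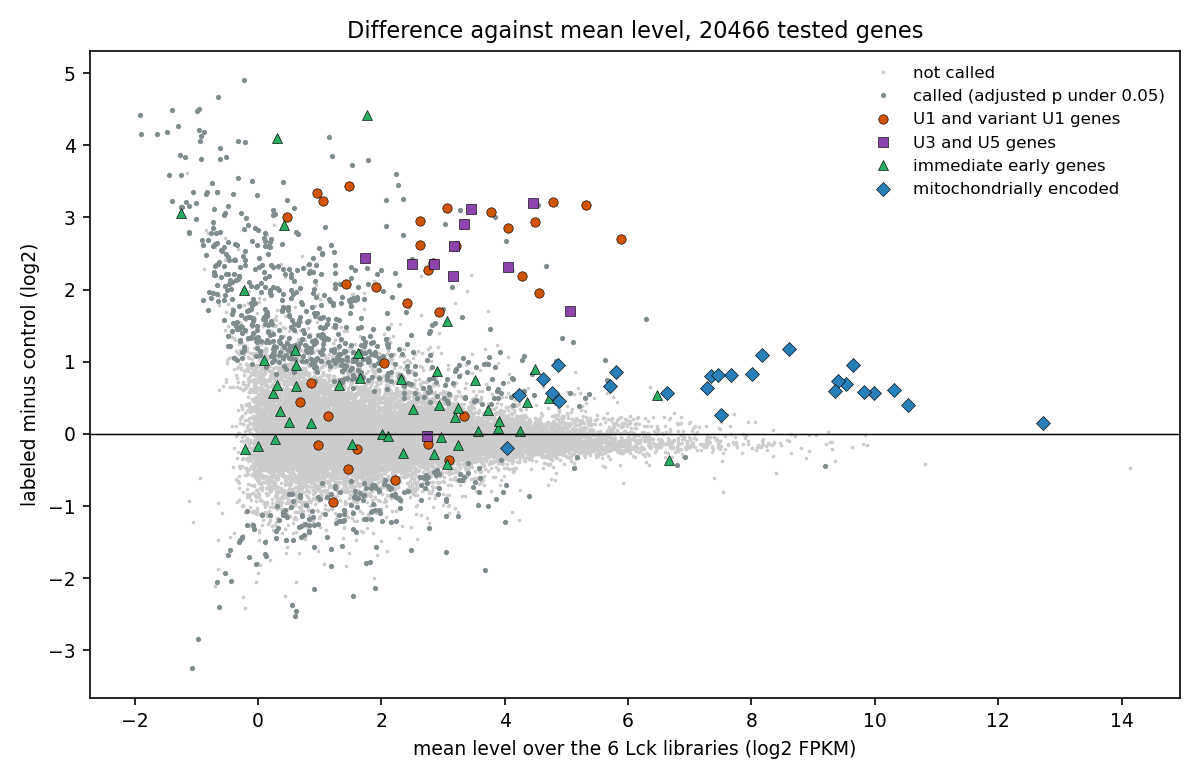
Labeled minus control (log2) on the vertical axis against the mean level over the 6 Lck libraries (log2 FPKM) on the horizontal axis, 1 point per tested gene; dark grey points were called. The medians of U1, U3 and U5 genes are 2.13, 2.40 and 2.35, EGR1 and FOS stand above 4, and mitochondrially encoded RNAs lie above 0 in 25 of 26 cases without being called.

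U1 RNA, which marks the 5′ end of introns by base pairing, had 19 genes among the 690 that were higher. All 34 U1 and variant U1 genes were tested, 0 were lower, and their median difference was 2.13 log2 units. Among all genes tested 3.37% were higher and 0.904% lower. Only 2 of the 34 were above 0 solely in labeled libraries. Between 14 and 21 were called over the alternative analyses, in each case with 0 lower. The sequences below show what unites and divides the members: the 9 bases that pair with the 5′ splice site, positions 3 to 11 counted from 1 at the RNA's 5′ end, are in capitals. Sequences come from the GENCODE 29 transcripts on GRCh38.
RNU1-1 (chr1:16514122-16514285, minus strand): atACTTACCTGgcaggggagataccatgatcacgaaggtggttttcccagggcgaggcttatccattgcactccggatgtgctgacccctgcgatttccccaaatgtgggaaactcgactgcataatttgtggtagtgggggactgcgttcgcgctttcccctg
RNVU1-15 (chr1:144412576-144412740, plus strand): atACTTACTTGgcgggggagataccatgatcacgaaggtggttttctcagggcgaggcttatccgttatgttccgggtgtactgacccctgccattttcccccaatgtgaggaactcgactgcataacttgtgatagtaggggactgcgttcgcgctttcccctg
RNVU1-4 (chr1:120942600-120942763, plus strand): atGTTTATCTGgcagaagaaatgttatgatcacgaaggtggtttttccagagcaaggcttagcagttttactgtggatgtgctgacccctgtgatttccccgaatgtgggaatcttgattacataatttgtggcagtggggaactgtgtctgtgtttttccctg
RNVU1-34 (chr17:58679527-58679690, minus strand): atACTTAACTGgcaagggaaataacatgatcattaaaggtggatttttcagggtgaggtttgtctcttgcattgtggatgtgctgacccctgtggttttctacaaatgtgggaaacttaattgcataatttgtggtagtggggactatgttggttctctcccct

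RNU1-1 carries the canonical U1 sequence, and 8 of the 34 genes have it letter for letter. Of these 8, 7 were higher, and the differences of the 8 ran from 2.03 to 3.44. Reads of identical copies cannot be assigned to 1 of them, so their separate values are uncertain. RNU1-1 itself had 22, 27 and 20 reads in the labeled and 2, 1 and 1 in the control libraries. All labeled libraries lay above all controls (adjusted p = 0.00152), but with 4 control reads in all no fold is given. RNU1-1 passed the filter through the labeled group alone.

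Variant U1 genes that differ from RNU1-1 in the pairing bases were higher as well. Relative to RNU1-1, RNVU1-15 has C9T, RNVU1-34 has C8A, and RNVU1-4 has A3G, C4T and C8T. RNVU1-15 stood at 7.18, 6.93 and 6.59 log2 FPKM labeled and 3.74, 3.56 and 3.89 as control. Every labeled library lay above every control, with a difference of 3.17 ± 0.16 (SE of the fit; adjusted p = 0.00066). RNVU1-34 stood at 6.27, 6.45 and 6.45 against 3.58, 2.78 and 3.15, and lies within TEX14 on the same strand. RNVU1-4, with 79.9% of its aligned bases shared with RNU1-1, had 256 reads labeled and 37 as control over 3 libraries each, and lies within LINC00623. Of the 18 genes with another pairing stretch 8 were higher. Of the 8 that differ only outside that stretch 4 were higher. The medians were 1.75 and 1.10.

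On chromosome 1, which holds the U1 gene clusters, 17 of 20 genes were higher and the median was 2.61. On other chromosomes 2 of 14 were higher, RNVU1-34 on chromosome 17 and RNU1-28P, an exact copy on chromosome 14, and the median was 0.35. The split was seen after the values were known and was not tested. Members not called included RNVU1-33 on chromosome 6 at -0.95 and RNU1-129P on chromosome 1 at -0.63. Outside the list, MIR6077 and MIR5087 were higher by 2.91 ± 0.20 and 2.32 ± 0.17, and lie 126 bases from RNVU1-2 and 57 bases from RNVU1-21, both higher themselves. Of 266 microRNA genes, 6 were higher and 2 lower, beside 3.37% and 0.904% of all genes tested.

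U4 and U5 belong to the particle that replaces U1 during splicing, and U2 marks the branch point. RNU4-2 stood at 5.77, 5.13 and 5.13 log2 FPKM labeled and 2.26, 2.31 and 2.42 as control, with no overlap, a difference of 3.01 ± 0.18 (adjusted p = 0.00095). Of 21 U4 and U4atac genes 4 were higher with a median of 0.23. For this list and those of U5 and U2, the share over all genes tested was 3.37% higher and 0.904% lower. Of 7 U5 genes 4 were higher with a median of 2.35: RNU5B-1, RNU5A-1, RNU5F-1 and RNU5A-8P, at 2.19 to 2.91. RNU5E-4P and RNU5D-1, at 3.11 and 2.35, did not pass. RNU5A-1 and RNU5B-1 lost the call without labeled replicate 1 or 2 (adjusted p = 0.0507 to 0.0603), RNU5A-1 also without labeled replicate 3 (0.0506), RNU5F-1 without labeled replicate 2 (0.0744), and RNU5B-1 and RNU5F-1 without control replicate 2 or 3 (0.057 to 0.0812). Of 9 U2 entries RNU2-63P alone was higher, at 3.25 ± 0.43, and it lost the call without labeled replicate 2 (adjusted p = 0.053). RNU4ATAC, of the minor spliceosome, was higher by 2.63 ± 0.30, and lies within the genes AC012447.1 and, on the opposite strand, CLASP1.

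U3 acts in the nucleolus, in the first cuts of the ribosomal RNA precursor. SNORD3B-2 had 6.26, 6.01 and 5.91 log2 FPKM labeled and 2.99, 2.52 and 3.09 as control (1283, 1212 and 1139 against 130, 104 and 142 reads). The groups lay far apart, at a difference of 3.20 ± 0.17 (adjusted p = 0.00066). SNORD3C and SNORD3B-1 were higher by 2.44 ± 0.17 and 2.36 ± 0.20, and SNORD3A, at 1.71 ± 0.49, did not pass (adjusted p = 0.121). SNORD3A was at 5.31 in control replicate 1 and 5.46 in labeled replicate 1, which nearly met, while the 2 other controls were at 3.48 and 3.84. U3 copies are near-identical by background knowledge, so the division of reads between the 4 genes is uncertain. Of 56 other box C/D RNAs, which guide ribose methylation, 5 were higher and 0 lower (median 0.14). Of 61 box H/ACA RNAs, which guide pseudouridylation, 3 were higher and 0 lower (median 0.12). Over all genes tested 3.37% were higher and 0.904% lower. Called members include SNORA55, which lies within PABPC4 and was higher by 1.02 ± 0.12, and SNORD100, which lies within RPS12 and was higher by 1.01 ± 0.10.

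Because near-identical copies share reads, the families were also summed per library and scaled to library size (RPM). U1 sums were 147, 141.04 and 121 labeled and 27.8, 25.3 and 27.8 as control, a 5.05-fold difference. U3 sums were 111, 108 and 135 against 38.8, 16.01 and 19.9, and U5 sums 12.6, 17.3 and 33.02 against 5.79, 2.58 and 3.10, differences of 2.34 and 2.43 log2 units. U1 was even across replicates, whereas U3 was highest among controls in replicate 1 and U5 differed widely among the labeled libraries. U2 and U4 sums differed by 1.02 and 0.88. All 9 U2 entries have pseudogene names. Over the 2 U4 genes that are not named as pseudogenes the difference was 3.30.

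U6 is the partner of U4 in the same particle. Its 186 entries summed to 110.2 to 151 RPM labeled and 123 to 135 as control, a difference of 0.01. None of those entries is a gene without a pseudogene name, and the same holds for the 51 7SK and 15 Y entries, at differences of 0.04 in both. A gene with the symbol 7SK, which lies within ARHGEF12 on chromosome 11, is outside that sum. Its symbol alone does not show that it is the source of working 7SK RNA. It was lower, at -0.89 ± 0.14, with 19, 22 and 29 reads labeled against 41, 44 and 39 (adjusted p = 0.0195), and lost the call without labeled replicate 1 or 2 or any one of the controls (adjusted p = 0.0608 to 0.0888). Sums of 7SL, the RNA part of the particle that brings ribosomes to the endoplasmic reticulum, were lower in every labeled library, at 6337, 5379 and 4729 RPM against 7661, 8573 and 6375, a difference of -0.46. The highest labeled and the lowest control value of 7SL nearly met. For U1, U2, U4, U5, U3 and 7SL the groups did not overlap, with an exact permutation p of 0.1 (two-sided), the smallest that 3 against 3 allows, and 0.183 adjusted over 11 families. This exact test therefore cannot give a p under 0.05 for any of these sums.

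**Figure D2:**
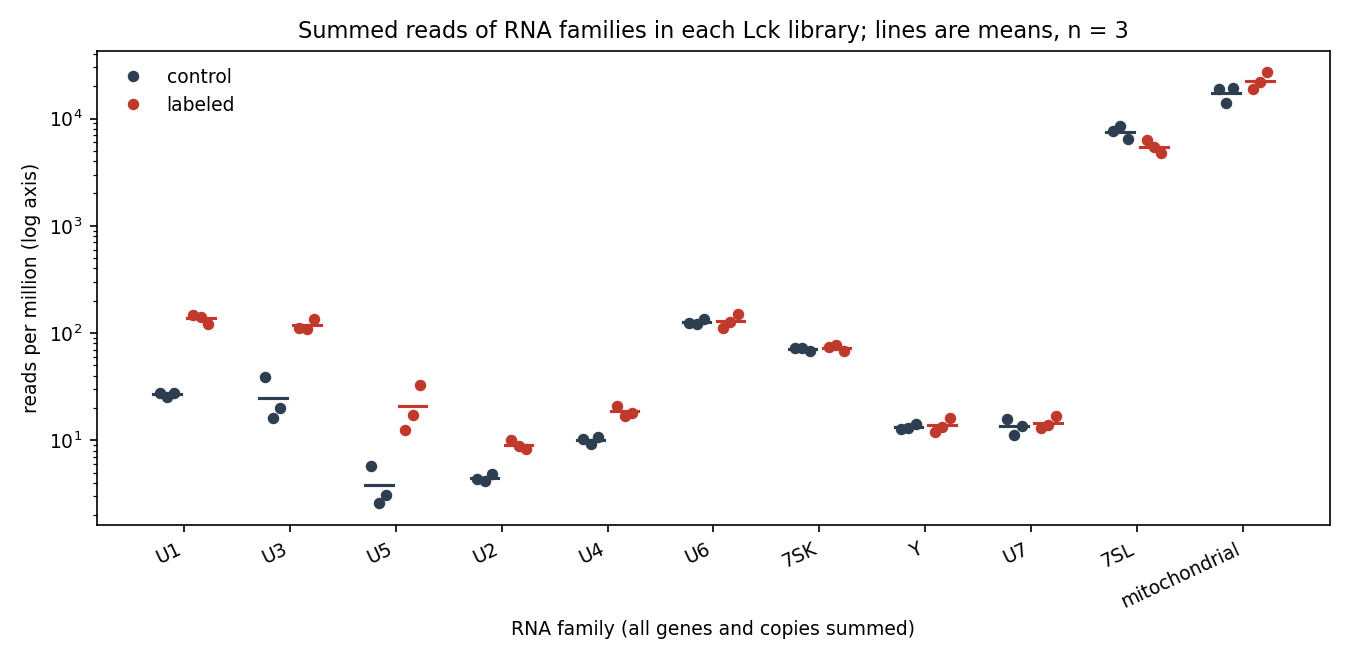
Summed RPM of each RNA family (log axis) in the 3 control and 3 labeled Lck libraries; points are libraries and lines are group means. Labeled points lie above control points for U1, U3, U5, U2 and U4, below them for 7SL, and overlap for U6, 7SK, Y, U7 and mitochondrial RNA.

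Immediate early genes are switched on within minutes of a signal without new protein synthesis, and many encode transcription factors. Of 19 tested factors 5 were higher and 0 lower (median 0.44), and 4 of the 5, EGR1, FOS, EGR3 and FOSB, were above 0 in labeled libraries only. They passed the filter through the labeled group alone, and with log2 above 0 in at least 2 libraries of each group 1 of 14 was higher. The shares over all genes tested were 3.37% higher and 0.904% lower. Under that second filter 254 of all 18947 genes were higher. Of 27 feedback and effector genes 8 were higher and 0 lower (median 0.36), and 5 of 21 were higher under that second filter. The 8 became 4 without labeled replicate 2 or control replicate 3, 5 without labeled replicate 3 or control replicate 1 or 2, and 6 without labeled replicate 1. EGR1 (ENSG00000120738.7, chromosome 5, 138465490 to 138469315, plus strand, hg38), a zinc finger factor, stood at 4.25, 3.89 and 3.78 log2 FPKM labeled and -0.48, -0.43 and -0.42 as control. That is 1268, 1105 and 1032 reads against 46, 53 and 49, with every labeled library far above every control. The log2 difference was 4.41 ± 0.16, or 21.3-fold (adjusted p = 0.000172), the largest among genes of a mean log2 of at least 1 with a symbol and no overlap.

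FOS and FOSB proteins form the AP-1 factor with JUN. FOS stood at 2.80, 2.21 and 2.05 labeled and -1.75, -0.98 and -2.51 as control, a difference of 4.10 ± 0.41 (adjusted p = 0.0044). FOSB stood at 2.13, 1.503 and 1.97 against -1.18, -0.76 and -1.16, a difference of 2.90 ± 0.24 (adjusted p = 0.00246), and overlaps ERCC1 on the opposite strand. In both genes control replicate 2 was the highest control, and the groups did not overlap. EGR3, with 120, 116 and 172 against 22, 16 and 8 reads, was higher by 3.06 ± 0.40. FOSL2 was higher by 0.78 ± 0.13 (adjusted p = 0.0253) and lost the call without any one of the 6 libraries (adjusted p = 0.0504 to 0.11). JUN, the partner of FOS, at 0.54 ± 0.12 (adjusted p = 0.0521), KLF4 at 0.68 ± 0.16 and JUND at 0.50 ± 0.15 did not pass. MYC, a growth regulator, was at -0.36 ± 0.09 (adjusted p = 0.0817).

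Among effectors, SGK1, a kinase that regulates ion channels, had 388, 354 and 433 reads labeled and 73, 113 and 94 as control (1.998 ± 0.23). SGK1 also passed the filter through the labeled group alone, and only 18 of the 21 alternative analyses gave it a value. CCN1, a secreted matrix protein, stood at 4.14, 3.79 and 3.59 log2 FPKM against 2.19, 2.45 and 2.18, a difference of 1.56 ± 0.16 (adjusted p = 0.0045). CCN1 kept its call in all 21 alternative analyses. HBEGF, a ligand of the EGF receptor, was higher by 1.13 ± 0.15, and DUSP1, a phosphatase that switches off MAP kinases, by 0.90 ± 0.15. DUSP1 lost the call without labeled replicate 3 (adjusted p = 0.0525) or without control replicate 1, 2 or 3 (0.0511 to 0.08). PLK2, GADD45B, DUSP5 and BTG1, at 1.16, 0.87, 0.77 and 0.74, each lost the call without labeled replicate 2 (adjusted p = 0.0747, 0.0909, 0.0838 and 0.0515). PLK2 and DUSP5 also lost it without labeled replicate 1 or 3 (adjusted p = 0.0594 to 0.0734), PLK2 without control replicate 2 or 3 (0.057 and 0.0641), DUSP5 without control replicate 1 or 3 (0.061 and 0.0791), and GADD45B without control replicate 1, 2 or 3 (0.068 to 0.102). NAB2, a repressor of EGR1, was at -0.42 ± 0.17 and did not pass (adjusted p = 0.255). The members thus ran from -0.42 to 4.41, with EGR1, FOS, EGR3 and FOSB at the upper end.

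**Figure D3:**
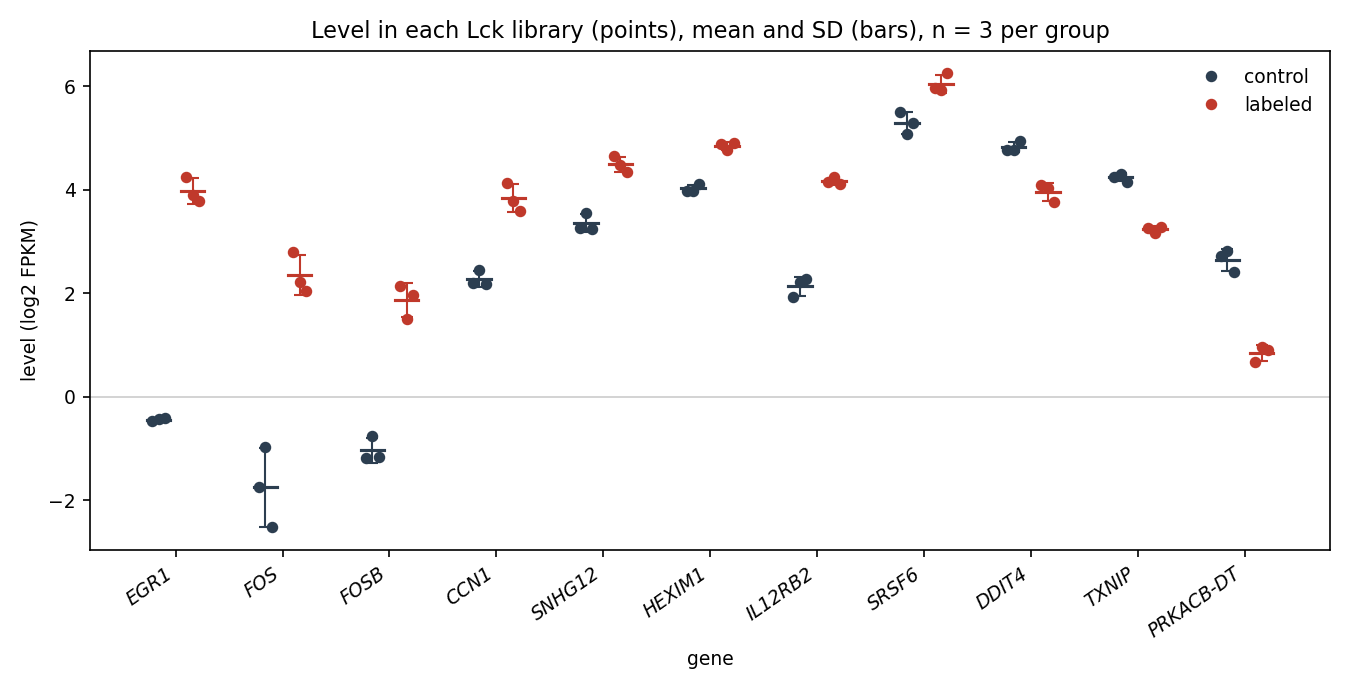
Level on the vertical axis (log2 FPKM) of 11 genes in each Lck library, with the mean and SD of 3 control and 3 labeled libraries. EGR1 rises from between -0.48 and -0.42 to between 3.78 and 4.25, and TXNIP falls from between 4.15 and 4.31 to between 3.16 and 3.29.

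The promoter of EGR1 shows the sites for which immediate early genes are known. The 250 bases before its RefSeq start (GRCh38.p14, chr5:138465229-138465478, plus strand) hold 2 CArG boxes, in capitals, the site of serum response factor: CC and GG around a run of A or T. They begin 105 and 83 bases before the start.
EGR1 promoter: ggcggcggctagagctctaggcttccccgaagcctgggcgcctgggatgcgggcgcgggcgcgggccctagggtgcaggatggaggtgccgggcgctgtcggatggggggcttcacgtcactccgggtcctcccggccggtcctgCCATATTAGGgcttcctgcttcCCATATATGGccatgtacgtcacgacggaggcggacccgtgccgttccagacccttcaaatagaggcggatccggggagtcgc

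CArG boxes, searched on both strands, were in 1.29% of 35116 RefSeq promoter windows, each 250 bases before to 50 after the start. They were in 1.60% of the 10009 tested coding genes with an entry and in 8 of 208 higher ones (3.85%). Among 35 tested immediate early genes with an entry, 2 held a CArG box in this window: EGR1, the only one of the 10 higher, and SRF, which was not called, at 0.04. The windows of FOS and FOSB held 0. The core of the cAMP response element, TGACGT or its complement ACGTCA, was in 14.3% of tested and 13.5% of higher coding genes. Of the 35 immediate early genes 12 held it, and 7 of the 10 higher ones did: EGR1, FOS, FOSB, PLK2, DUSP1, FOSL2 and BTG1. A match is a description of these letters in the window.

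Of all 12340 coding genes tested, 284 were higher and 28 lower, beside 3.37% and 0.904% of all genes tested. With a mean log2 of at least 0 as the filter the coding counts were 181 and 17 of 12135. IL12RB2, a cytokine receptor chain, stood at 4.15, 4.24 and 4.11 log2 FPKM labeled and 1.92, 2.21 and 2.27 as control, a difference of 2.03 ± 0.12 (adjusted p = 0.000856). MYLIP, a ubiquitin ligase for the LDL receptor, was higher by 1.05 ± 0.09 and NXF1, the main mRNA export receptor, by 0.98 ± 0.09. HEXIM1, which binds 7SK RNA and holds back the elongation factor P-TEFb, stood at 4.89, 4.76 and 4.90 against 3.98, 3.98 and 4.11. Its difference was 0.82 ± 0.08 (adjusted p = 0.0037), in libraries that were almost level within each group. SNHG12, a host of small nucleolar RNAs, was higher by 1.14 ± 0.12, as 1 of 24 host genes tested. SRSF6 and TRA2B, splicing regulators, were higher by 0.75 ± 0.13 and 0.55 ± 0.10 as 2 of 22 such genes, and both lost the call without labeled replicate 1, 2 or 3 or control replicate 2 or 3 (adjusted p = 0.066 to 0.108).

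Several of the highest coding genes lie where a strongly expressed neighbour points towards them. SMIM47 stood at 4.06, 4.14 and 3.93 labeled and 0.35, 0.33 and 0.67 as control, a difference of 3.60 ± 0.14. ACP4, which overlaps it on the opposite strand, was at 4.94, 4.91 and 4.62 against 1.42, 2.101 and 1.65 (3.10 ± 0.19). Without strand information their reads cannot be told apart where they overlap, and C19orf48P, with a mean log2 of 5.65, ends 4562 bases and 2480 bases from them. MAP3K12, a neuronal stress kinase, was higher by 1.54 ± 0.14 and overlaps PCBP2, which points into it. SPSB2 (1.25 ± 0.12) overlaps TPI1, FAXDC2 (1.17 ± 0.11) lies 884 bases from the end of LARP1, and NXF1 lies 595 bases from the end of STX5. The neighbours themselves were not called, at -0.17 for TPI1, -0.17 for LARP1, -0.01 for STX5 and 0.22 for PCBP2.

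Among coding genes with a mean log2 of 0 to 4, 64 of 186 higher genes (34.4%) had a coding neighbour of mean log2 of at least 4 whose 3′ end lay within 10 kb and pointed at them, against 951 of 9675 tested (9.83%). Of the 20 lower genes 0 had one. Within 1 kb the shares were 12.9% and 4.39%, and within 50 kb 46.2% and 20.2%. The higher genes of mean log2 0 to 2 with such a neighbour included 22 with one on the same and 32 with one on the opposite strand, a gene with both counting in each. The window and level were chosen after the values were seen, so the shares are a description. The part of neighbouring transcripts in the differences was not tested.

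Fewer genes were lower with Lck. TXNIP, an inhibitor of thioredoxin and glucose uptake, stood at 3.25, 3.16 and 3.29 log2 FPKM labeled and 4.25, 4.31 and 4.15 as control. Its fall of 1.01 on the log2 scale had an SE of 0.08 (adjusted p = 0.0026), with no overlap of groups. It was the only one of 8 tested MondoA genes to pass, with ARRDC4 and ARRDC3, its relatives, at -0.26 and -0.39 and a list median of -0.30. DDIT4, an inhibitor of mTORC1, stood at 4.09, 4.03 and 3.76 against 4.76, 4.78 and 4.93, a difference of -0.86 ± 0.11 (adjusted p = 0.0091). ASNS, asparagine synthetase, was at -0.56 ± 0.11, with the call lost without any one of the 6 libraries (adjusted p = 0.0505 to 0.123). DDIT4 and ASNS were the 2 lower of 17 integrated stress response genes. For this list and the MondoA list, the share over all genes tested was 0.904% lower and 3.37% higher. Of the same 17, PPP1R15A alone was higher, at 0.50 ± 0.07, with the call lost without labeled replicate 1 or 2 or control replicate 2 or 3 (adjusted p = 0.051 to 0.0873).

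Long noncoding RNAs named as divergent transcripts, which start beside and run away from a coding gene, included more lower than higher members. Of 240 tested 13 were lower and 5 higher (5.42% and 2.08%), beside 0.904% and 3.37% of all genes tested. The median was -0.24 beside -0.04 over all genes. The 13 lower became 3 without labeled replicate 2 or control replicate 3, 5 without control replicate 1 or 2, and 7 without labeled replicate 1 or 3. The 5 higher became 0 without labeled replicate 1 or 2 or control replicate 1 or 3, 1 without labeled replicate 3 and 3 without control replicate 2. PRKACB-DT stood at 0.67, 0.97 and 0.91 labeled and 2.71, 2.81 and 2.41 as control, a difference of -1.79 ± 0.16 (adjusted p = 0.0031) that kept its call in all 21 alternative analyses. In the annotation PRKACB-DT overlaps no other annotated gene. Of 767 antisense-named RNAs 23 were higher and 18 lower, beside 3.37% and 0.904% of all genes tested. HM13-AS1, opposite HM13, stood at 3.49, 2.99 and 2.91 against -0.75, -0.87 and -0.55 (3.86 ± 0.20). It passed the filter through the labeled group alone. Of 258 intergenic-named RNAs 24 were higher and 4 lower, 12 and 3 with a mean log2 of at least 0. LINC01756 had 215, 237 and 181 reads labeled against 13, 32 and 19. It did not pass the filter of log2 above 0 in at least 2 libraries of each group.

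Few membrane and secretory mRNAs were called, but the lists were small and only 4.28% of all genes tested were called. Solute carriers and pumps of the plasma membrane had 1 of 31 called and a median of 0.14, with 26 of 31 above 0. Of 31 endoplasmic reticulum chaperones and translocon genes limma called 0 (5 with an unadjusted p under 0.05, 0 called by limma voom on recovered reads), the median was 0.15 and all 31 were above 0, from 0.03 to 0.68. Without labeled replicate 1 the median was 0.09 and 25 were above 0. HSPA5, the chaperone BiP, stood at 7.86, 7.72 and 7.65 against 7.51, 7.49 and 7.39, a difference of 0.28 ± 0.08 (adjusted p = 0.125). Of all genes tested 3847 had an unadjusted p under 0.05 in limma. The medians of both lists compare with -0.04 over all genes, of which 8816 of 20466 were above 0, and with -0.09 for genes with a mean log2 of 4 to 6. Both medians were above 0 under every alternative run.

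Of 28 adhesion and ephrin receptor genes EFNB2 alone was higher, at 0.41 ± 0.08, with the call lost without any one of the 6 libraries (adjusted p = 0.0666 to 0.151). The list's median was 0.11. Lipid-anchored kinases and G proteins, the protein family of the Lck anchor, had 0 of 29 called by limma or limma voom (2 with an unadjusted p under 0.05) and a median of -0.13, with RHOA at -0.23 ± 0.07. Of 84 cytosolic ribosomal protein genes 2 were higher and 0 lower (median -0.11): RPL3L, towards which RPS2 points, and RPS9, which overlaps LILRB3 on the opposite strand. Both lost the call without labeled replicate 2 (adjusted p = 0.0596 and 0.0534). Replication-dependent histones had 0 higher and 2 lower of 54 (median -0.21), H4C1 and H2BC12 at -0.43 and -0.44, and both calls were lost without any one of the 6 libraries (adjusted p = 0.0591 to 0.149). Limma called 0 of 356 ZNF genes (34 with an unadjusted p under 0.05, 5 called by limma voom). It also called 0 of 21 NRF2 targets, 14 cytosolic heat shock genes, 11 p53 targets and 31 actin and focal adhesion genes, with 2, 1, 1 and 1 at an unadjusted p under 0.05 and 0 called by limma voom. Over all 20466 genes tested 3.37% were higher and 0.904% lower, and 3847 had an unadjusted p under 0.05 in limma.

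Mitochondrially encoded RNAs had a median of 0.65 with 25 of 26 above 0. The median was 0.38 without labeled replicate 3, and 0.48 to 0.89 without any one of the other libraries. Limma called 0 of them (8 with an unadjusted p under 0.05), and limma voom on recovered reads called 3. Of all 20466 genes tested 3847 had an unadjusted p under 0.05 in limma. MT-ND1, a subunit of complex I, stood at 8.85, 9.18 and 9.57 labeled and 8.33, 7.48 and 8.26 as control, a difference of 1.17 ± 0.27 (adjusted p = 0.0654). Control replicate 2 was the lowest of the 6. In the summed mitochondrial reads the groups overlapped (exact permutation p = 0.3).

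**Figure D4:**
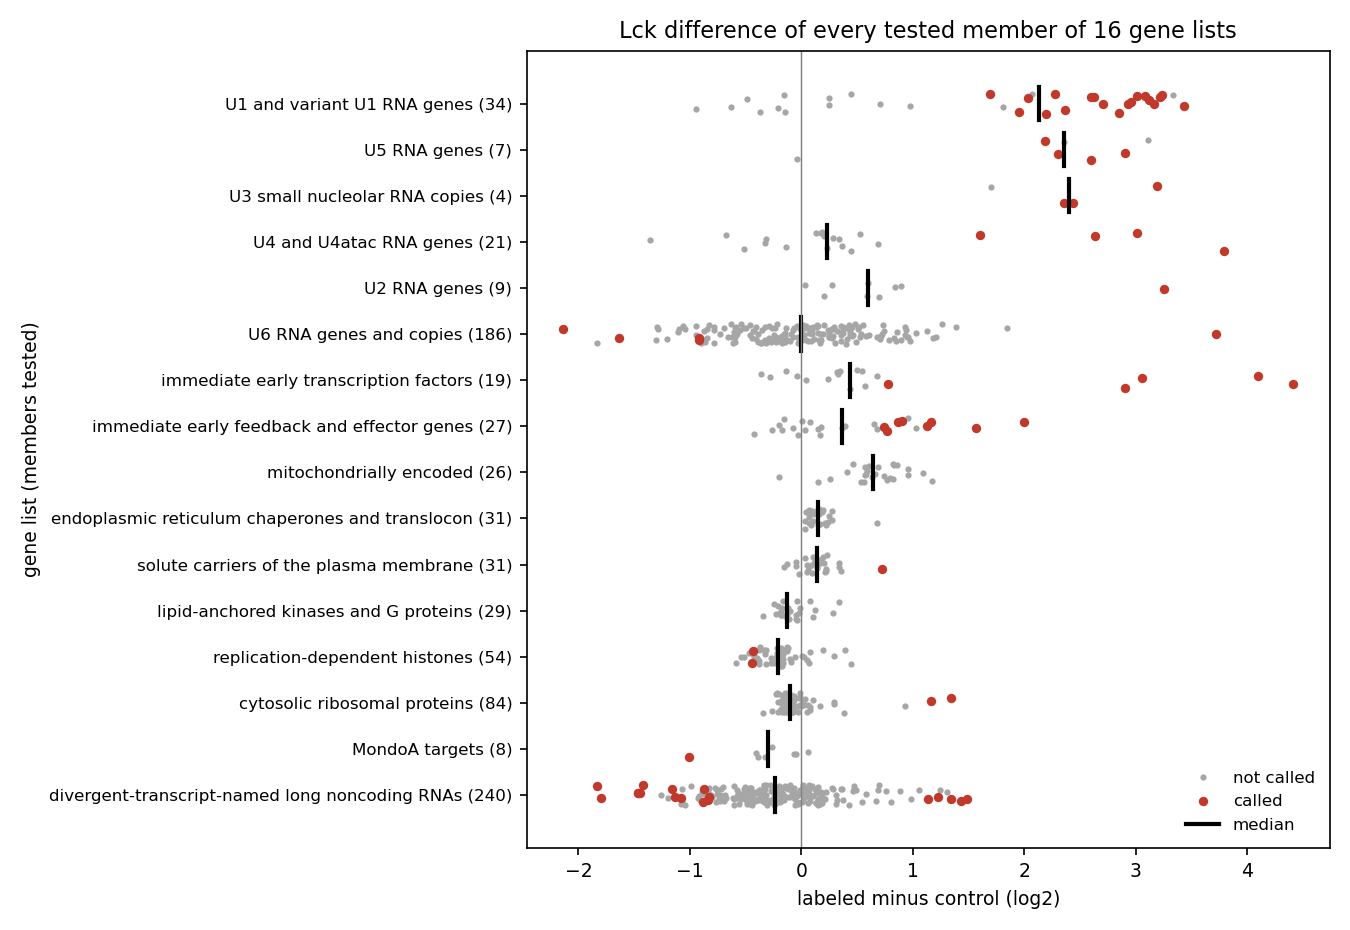
Labeled minus control (log2) for every tested member of 16 gene lists, with called members in red and the list median as a black line; the number tested is in brackets. Called U1, U5 and U3 members lie at 1.695 or higher, immediate early genes spread to 4.41, and endoplasmic reticulum genes form a narrow group above 0.

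Whether the differences belong to Lck was asked by setting them against those of the other constructs, which have controls of their own. No gene passed for Lck minus the average of the other 3 in limma over all 26 libraries weighted by construct (0 of 20466, 0.0%; lowest adjusted p = 0.210), though 1560 had an unadjusted p under 0.05. Quantile normalization gave 6 genes and leaving out Lck control replicate 1 gave 2. No gene passed for Lck minus Lyn11, the other inside construct (0.0%; lowest adjusted p = 0.999; 320 with an unadjusted p under 0.05). Neither count shows that the constructs act alike. EGR1 differed by 4.41 with Lck, 3.90 ± 0.33 with Lyn11, 2.09 ± 0.47 with CD28 and 1.95 ± 0.47 with PDGFR. The EGR1 difference with Lck minus the average of the others was 1.77 ± 0.34 (adjusted p = 0.210), and that of FOSB 1.5001 ± 0.29 and of IL12RB2 0.81 ± 0.16. For HEXIM1 and SNHG12 the same contrast was 0.10 ± 0.13 and -0.05 ± 0.15, and for TXNIP -0.23 ± 0.13.

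**Figure D5:**
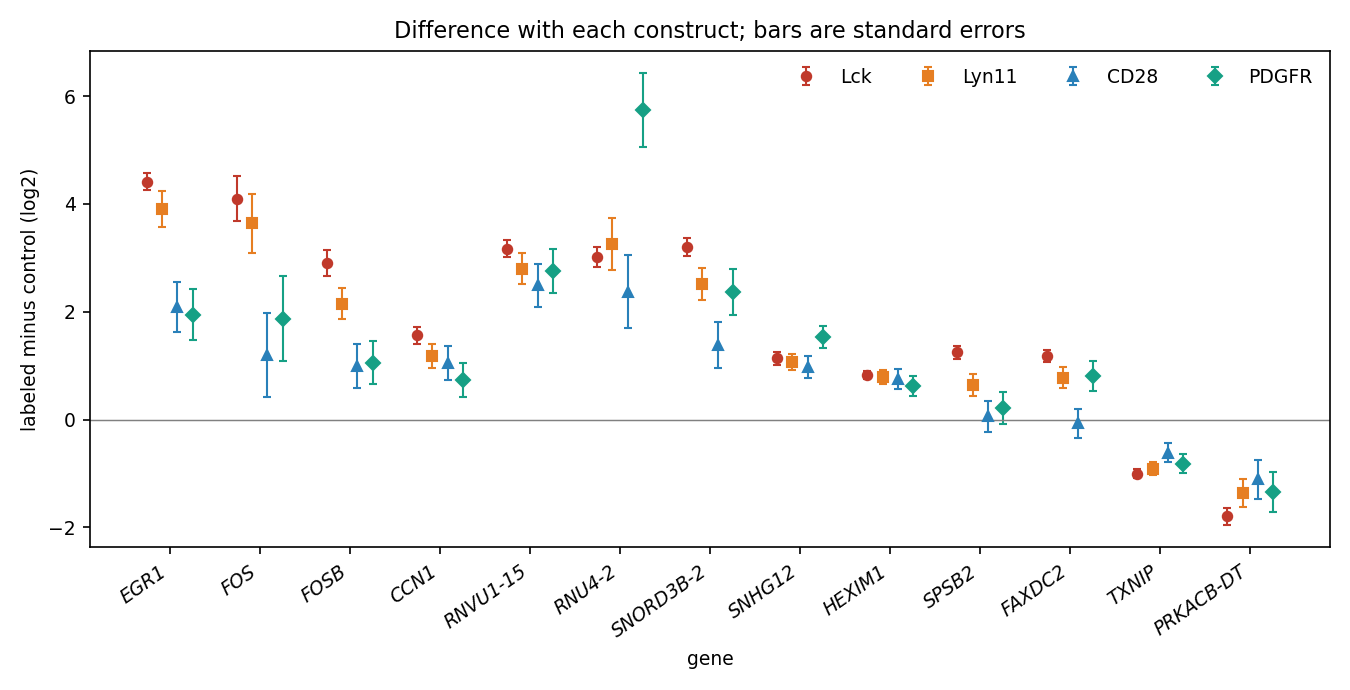
Labeled minus control (log2) for 13 genes with each of the 4 constructs; points are fitted differences and bars are standard errors, from the 6 Lck libraries for Lck and from the weighted fit over 26 libraries for the others. The 4 constructs share the sign in every gene drawn except FAXDC2, where CD28 is at -0.07, and EGR1, FOS and FOSB are highest with Lck.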

How the data were processed

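The deposited values are log2 FPKM for 25745 Ensembl genes. The authors used HISAT2 2.1.0, hg38 and edgeR (no version), per the submitters' processing notes; no source used here states strandedness. Identifiers were matched to GENCODE 29, 24075 with and 1578 without their version. Reads per library were recovered from the deposited log2 values, whose floors imply a prior count of 1.003 reads, with every gene whole to within 0.05 read after a length from GENCODE or a search; they served only the reads shown, the sums, the depths and 1 alternative. Sums are scaled to the library sizes those floors imply, and intervals of reads would cover counting error only.

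Labeled and control libraries were compared with limma 3.58.1 (R 4.3.3) on the log2 values, with an intensity trend, 4 residual and 6.96 moderated degrees of freedom, two-sided tests and Benjamini-Hochberg adjustment over the 20466 genes. The construct contrasts used all 26 libraries with weights of 2.63 for Lck, 0.958 for Lyn11, 0.643 for CD28 and 0.626 for PDGFR. Values after ± are standard errors of the fit. The fit was tested on simulated data. Nothing in the labels says beyond the term biological replicate that libraries came from separate cultures, so p-values measure the spread between these libraries. Replicate pairs differed by more than sampling noise (chi-square per gene 5.50 to 23.1). Members and gene lists were chosen with earlier results of these data known. Named genes were the 15 highest and 15 lowest called differences that had a symbol, groups without overlap and a mean log2 of 1 or more, the same among coding genes with a mean log2 of at least 2, called list members (3 at each end where over 6 were called) and a short fixed set; 20 further genes were named after their values were seen, among them HBEGF, DUSP1 and JUN. Promoter windows are RefSeq's (GRCh38.p14). Protein sequences were not used here, and 1 called gene is not reported here. Alternatives were other filters, scalings and spread models, limma voom on the recovered reads, a replicate block and leaving out each library.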

Additional observations from a re-analysis of the deposited data

Results flagged for a closer look

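For 4 of the named genes every labeled library lay on one side of the controls with Lck and on the other side with another construct. Only the named genes were searched, so the share of such genes over all genes tested is not known. With Lck alone the groups did not overlap for 25.8% of genes tested. RNU7-119P, a U7 copy within PDZRN3, was higher with Lck by 0.95, with 17, 18 and 19 against 7, 9 and 9 reads, and at -3.14 with CD28. MIR5695 was higher with Lck by 1.98, a call lost without labeled replicate 1, 2 or 3 or control replicate 2 or 3, and was at -1.86 with PDGFR. RHOA was at -0.23 with Lck and 0.39 with CD28, and MYC at -0.36 and 0.16, with neither called for Lck. These differences between 2 constructs were not tested. Groups of 3 libraries are too small for a test of single outlying libraries.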

How the results depend on the processing

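Of the values of the named genes under 21 alternatives, 2477 kept direction and side of the threshold, 771 lost the call, 19 gained it and 0 reversed; 56 of 144 called genes were called in each of the 6 fits without a library. The counts of higher and lower genes were 1037 and 249 without a filter, 397 and 115 with log2 above 1 in at least 3 libraries, 254 and 68 with log2 above 0 in at least 2 libraries of each group (chosen after seeing the data), 1050 and 587 with all 26 libraries weighted by construct, 165 and 8 with 1 spread shared by all 26, 475 and 84 with the 14 inside libraries, and 232 to 471 and 38 to 85 without 1 library. With the replicate number as a block they were 400 and 51, and 335 and 70 with quantile normalization added. Deviations of same-numbered libraries correlated at -0.27, 0.09 and -0.06, so the numbers were not taken to pair them. The contrast with the other 3 constructs gave 6 genes after quantile normalization and 0 to 2 without 1 library, and that with Lyn11 gave 0 throughout. Sums near 0 changed sign without 1 library: U6 at -0.10 to 0.13, 7SK at -0.0048 to 0.10, Y at -0.0747 to 0.14 and U7 at -0.0181 to 0.23. The cause was not tested. Depth limits genes with few reads, where a prior count shrinks log2 differences and 3 libraries a group can leave differences uncalled. Yet the 649 genes with a mean log2 under 0 had a median difference of 0.60, and some low genes passed the filter through 1 group alone.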
